A study of Homo sapiens with 9 samples.

Results

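The 10 genes described here are immediate early genes: the zinc finger factor genes EGR1, EGR2 and EGR3, the AP-1 genes FOS, FOSB, JUN, JUNB and JUND, the nuclear receptor gene NR4A1 and the nuclear protein gene IER2. They were taken by symbol from a table of 26190 rows with usable values, and all 10 were found. Immediate early genes are transcribed within minutes of a stimulus, without new protein synthesis, through factors already bound at their promoters. In T cells the T-cell receptor reaches them through RAS, the kinase ERK and calcium, and ERK acts on EGR1 and FOS through the serum response factor SRF and its ELK partners. EGR factors, AP-1 (dimers of FOS and JUN proteins) and NR4A factors then act on genes of activation, tolerance and cell death.

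The libraries were made from Jurkat cells, an established line of human T-cell acute lymphoblastic leukaemia, in 3 groups of 3 biological replicates. KO1 and KO2 are lines edited with CRISPR/Cas9 at EZH2, which encodes the methyltransferase of Polycomb repressive complex 2, and WT is the Jurkat line without this edit. All 3 groups were grown in RPMI medium with serum and antibiotics and harvested in exponential growth, with no stimulus named. The values are thus levels in cells growing in serum, and the part of serum in them was not tested. Whether each edited line is a single clone is not given in the sources used here, and p-values measure the spread between replicates of 1 line, not between independent edits.

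Values are FPKM, fragments scaled to transcript length and to the size of the library. Fold changes were taken from limma with their SE after adding 1 FPKM and taking log2, so those of weakly expressed genes are understated. A gene was tested if it reached 1 FPKM in 3 or more of the 9 libraries (11737 genes), and passed at a Benjamini-Hochberg adjusted p under 0.05 over all of them. EZH2 itself stood at 106 ± 2.501 FPKM in KO1 and 89.5 ± 1.40 in KO2, against 77.2 ± 2.54 in WT (SD, n = 3 each), so its mRNA was higher in the edited lines (limma log2 fold change 0.45 and 0.21, adjusted p = 1.64e-06 and 0.000541). An mRNA level cannot check an edit that acts on the protein. All 8 T-cell markers examined (CD3D, CD3E, CD3G, CD2, CD7, LCK, ZAP70 and LAT) were at 1 FPKM or more in every library, their sum running from 1276 to 1413 FPKM in KO1, 1491 to 1526 in KO2 and 1446 to 1549 in WT. Of 16 markers of B, myeloid, erythroid, epithelial and fibroblast cells, CD79A, HBB and COL1A1 reached 1 FPKM in a library, and PAX5 and COL3A1 were at 0 in all. The summed B-cell markers ran from 48.6 to 58.2 FPKM in KO1, 19.2 to 22.2 in KO2 and 24.5 to 29.03 in WT, and their part in the results was not tested. The parts of cell number and of RNA per cell in a difference cannot be told apart in such bulk libraries.

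The proximal promoters of EGR1, EGR2, FOS and JUND show which stimulus-response elements sit beside these genes. RefSeq promoter windows on GRCh38.p14 were matched for 9 of the 10 genes, and the 250 bases before each start were searched on both strands, over 3 listed starts for EGR2 and 2 for NR4A1. EGR1 and EGR2 are shown because both hold a CArG box, the element bound by SRF, FOS because its level was low in both edited lines, and JUND because it holds a full cyclic AMP response element (CRE) and kept similar levels in the 3 groups. Capitals mark CArG boxes, EGR sites (GCGNGGGCG), CREs (TGACGTCA) and CRE core sites (TGACG), in either orientation, and each sequence ends at the base before the start.
EGR1, chr5:138465229-138465478, plus strand: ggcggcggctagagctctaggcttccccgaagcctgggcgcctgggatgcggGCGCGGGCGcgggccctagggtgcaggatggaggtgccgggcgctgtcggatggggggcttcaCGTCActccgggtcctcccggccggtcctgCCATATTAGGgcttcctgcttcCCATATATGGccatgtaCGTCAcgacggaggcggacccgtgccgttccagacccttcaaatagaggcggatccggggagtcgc
EGR2, chr10:62816367-62816616, minus strand: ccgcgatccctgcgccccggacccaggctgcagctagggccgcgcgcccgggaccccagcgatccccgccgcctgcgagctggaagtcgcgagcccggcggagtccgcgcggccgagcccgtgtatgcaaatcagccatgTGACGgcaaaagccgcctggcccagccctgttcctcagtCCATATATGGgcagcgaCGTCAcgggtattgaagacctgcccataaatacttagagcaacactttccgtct
FOS, chr14:75278578-75278827, plus strand: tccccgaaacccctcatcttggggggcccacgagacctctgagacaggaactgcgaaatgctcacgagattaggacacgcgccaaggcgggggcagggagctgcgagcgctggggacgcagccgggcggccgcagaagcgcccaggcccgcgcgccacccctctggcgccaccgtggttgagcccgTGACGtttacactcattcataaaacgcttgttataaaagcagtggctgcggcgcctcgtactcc
JUND, chr19:18281623-18281872, minus strand: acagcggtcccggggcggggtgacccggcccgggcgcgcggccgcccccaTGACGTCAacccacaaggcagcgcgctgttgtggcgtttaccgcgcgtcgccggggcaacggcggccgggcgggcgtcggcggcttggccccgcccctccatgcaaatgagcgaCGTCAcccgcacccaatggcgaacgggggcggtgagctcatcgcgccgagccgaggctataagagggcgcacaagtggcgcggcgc

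EGR1 held 2 CArG boxes, starting 105 and 83 bases before the start, and EGR2 held 1, starting 71 bases before it. At least 1 CArG box was found in 1.16% of the 35116 RefSeq windows of the same length, and 2 or more in 0.0313%. A CRE core site was found in 8 of the 9 genes with a window, all but NR4A1, against 21.2% of all windows, and in FOS it started 64 bases before the start. The full CRE, which contains overlapping core sites, was found in JUND alone among the 9 (1.65% of all windows), and the EGR site in EGR1 alone (8.41%). The AP-1 site TGANTCA was found in none of the 9 (6.57% of all windows), and the Sp1 site GGGCGG, which is not capitalised, was found in 7 (42.6%). A gene counted if any of its listed starts held the site (3 starts for EGR2, 2 for NR4A1), whereas the percentages count single windows. FOS and NR4A1 held no CArG box in these windows, which cover only the 250 bases before each start. A match of letters describes the sequence only, and elements farther from the start were not examined. The part of these elements in the changes was not tested.

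EGR1 carried the largest change among the 10 genes in both edited lines, and the other EGR genes were close to silent in every library. EGR1 encodes the zinc finger factor most readily induced by ERK signalling. It stood at 0.256, 0.270 and 0.238 FPKM in the KO1 libraries and at 0.485, 0.105 and 0.282 in the KO2 libraries, against 5.58, 5.66 and 5.45 in WT. The 6 edited libraries were all below 0.5 FPKM and the 3 WT libraries all above 5, with no overlap. The FPKM mean in WT was 21.8-fold that in KO1 and 19.1-fold that in KO2.

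The log2 fold change of EGR1 was -2.39 ± 0.11 in KO1 (limma adjusted p = 1.60e-08) and -2.36 ± 0.11 in KO2 (limma adjusted p = 2.89e-08). Counted from the lowest fold change, EGR1 ranked 34 of 11737 tested genes in KO1 and 23 in KO2. With a pseudocount of 0.1 in place of 1 the values were -4.00 and -3.98, and EGR1 passed the filter through its WT libraries alone. Between the edited lines EGR1 differed by 0.03 ± 0.11 (limma adjusted p = 0.855), which is less than the spread between the KO2 libraries.

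**Figure D1:**
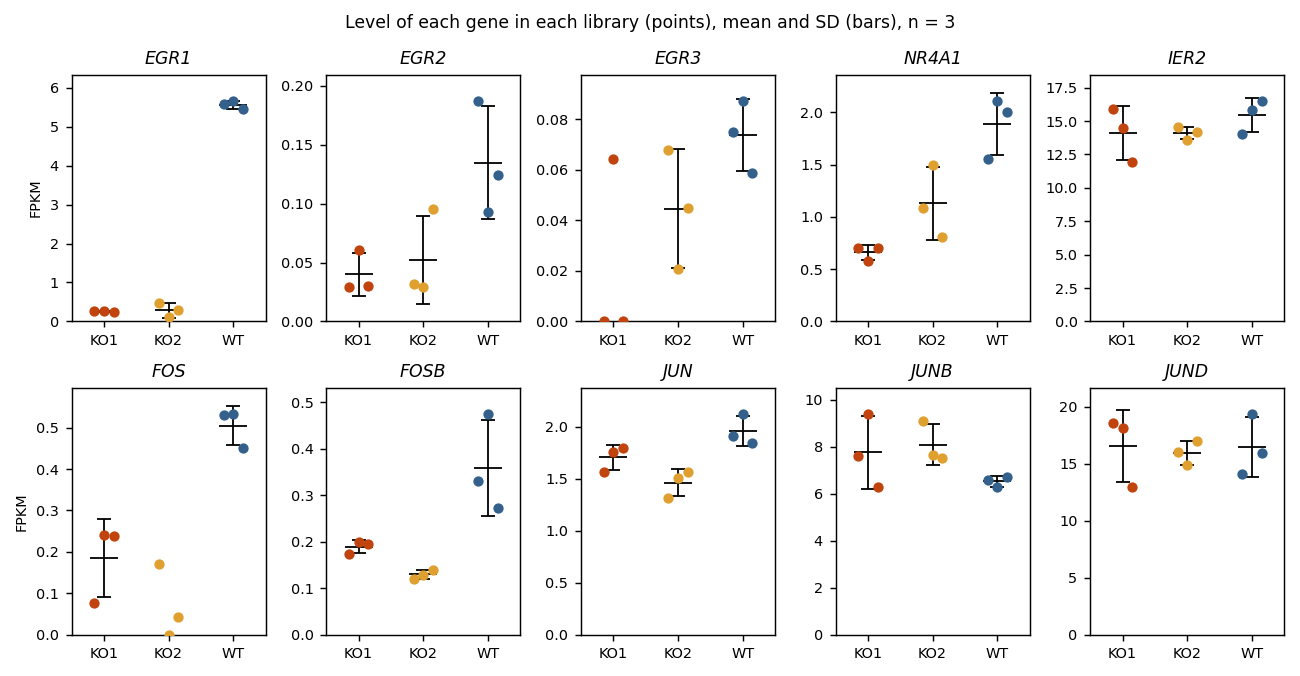
FPKM of each of the 10 genes in each library (points, 3 per group), with the mean and SD as bars except in the 2 groups that hold a library at 0 (EGR3 in KO1, FOS in KO2). Vertical axes start at 0 and differ between panels. EGR1, FOS, FOSB, NR4A1 and JUN were lower in every KO1 and KO2 library than in every WT library, whereas IER2, JUND and EGR3 overlapped.

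EGR2 and EGR3, which in mouse T cells restrain activation and induce tolerance genes, did not reach 1 FPKM in any library. EGR2 was at 0.0288, 0.0610 and 0.0299 FPKM in KO1 and at 0.0322, 0.0296 and 0.0956 in KO2, against 0.187, 0.0930 and 0.124 in WT. The KO1 libraries lay below those of WT, while KO2 replicate 3 reached into the WT range. EGR3 was at 0, 0.0644 and 0 FPKM in KO1 and at 0.0680, 0.0208 and 0.0448 in KO2, against 0.0749, 0.0872 and 0.0589 in WT, and both edited groups overlapped WT.

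Fitted without the filter (18182 genes), EGR2 had a log2 fold change of -0.13 ± 0.04 in KO1 (limma adjusted p = 0.0221) and -0.11 ± 0.04 in KO2 (adjusted p = 0.0434). In KO1, leaving out WT replicate 1 ended the EGR2 call (adjusted p = 0.0601), as did leaving out KO1 replicate 1 (0.0675) or KO1 replicate 3 (0.0663). In KO2 it was lost under 10 of 17 alternatives run without the filter (adjusted p = 0.0071 to 0.131 over them), among them leaving out any library but WT replicate 2 or KO2 replicate 3 (0.0574 to 0.131) and the fit with the replicate number as a block (0.0804). EGR3 had -0.07 ± 0.03 in KO1 (adjusted p = 0.0785) and -0.04 ± 0.03 in KO2 (adjusted p = 0.338). EGR3 passed in both lines after quantile normalization (adjusted p = 0.00663 and 0.0266) or median centring (0.0108 and 0.01), and in KO1 without KO1 replicate 2 (0.00967). Median centring moves all genes of a comparison by the same amount. It took EGR3 from -0.072 to -0.135 in KO1 and from -0.040 to -0.139 in KO2, so the passes after centring rest on that common shift.

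The depth behind these low levels can be read from the values themselves. Depth relative to WT replicate 3 was taken from the commonest ratio of low values, over 253 to 357 genes in each other library. It spanned 0.963 to 1.16 times that of WT replicate 3. Adjusted for it, the low FPKM values of EGR1, EGR2, FOS and, with 1 exception in WT, EGR3 fell on steps, as they do when whole fragments are counted. After that adjustment, EGR2 stood at 1, 2 and 1 steps in KO1 and 1, 1 and 3 in KO2, against 7, 3 and 4 in WT. All 9 of these values lay within 0.1 of a whole number of steps. EGR3 ran from 0 to 3 steps in the edited libraries, against 2.69 to 4 in WT. EGR1 stood at 10, 10 and 9 steps in KO1 and 17, 4 and 10 in KO2, against 236, 206 and 198 in WT. The residual EGR1 level rested on few steps and its difference from WT on many, whereas the EGR2 and EGR3 differences rested on a handful of steps in each library. Counts were not part of the table, so that a step is a single fragment is an inference from the spacing.

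NR4A1 fell in both edited lines. It encodes NUR77, an orphan nuclear receptor used as a readout of T-cell receptor signalling and known for promoting death of thymocytes. Its levels were 0.706, 0.578 and 0.700 FPKM in KO1 and 1.08, 1.502 and 0.807 in KO2, against 1.55, 2.11 and 2.01 in WT. The 3 groups did not overlap, with KO1 lowest and WT highest, although KO2 replicate 2 came close to WT replicate 1.

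The log2 fold change of NR4A1 was -0.79 ± 0.13 in KO1 (limma adjusted p = 0.000231) and -0.45 ± 0.13 in KO2 (adjusted p = 0.00964). KO2 was above KO1 by 0.35 ± 0.13, which did not pass (limma adjusted p = 0.0606). That difference passed without WT replicate 1 (adjusted p = 0.0492), without KO2 replicate 3 (0.46, adjusted p = 0.0239), after quantile normalization (0.44, adjusted p = 0.0262) and with a pseudocount of 0.1 (0.66, adjusted p = 0.0462), over a range of 0.0239 to 0.212 in 18 alternatives. The related gene NR4A3 reached at most 0.350 FPKM in any library and was not tested.

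The FOS genes, whose proteins pair with JUN proteins in AP-1, were low in every library and lower in both edited lines. FOS was at 0.0761, 0.242 and 0.238 FPKM in KO1 and at 0.170, 0 and 0.0421 in KO2, against 0.531, 0.532 and 0.451 in WT. In steps this was 2, 6 and 6 in KO1 and 4, 0 and 1 in KO2, against 15, 13 and 11 in WT. Neither edited group overlapped WT, and the edited groups overlapped each other. Fitted without the filter, FOS fell by 0.35 ± 0.07 in KO1 (limma adjusted p = 0.00437) and by 0.49 ± 0.07 in KO2 (adjusted p = 0.000728) on the log2 scale. With a pseudocount of 0.1 the fold changes were -1.15 ± 0.39 and -1.95 ± 0.39.

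FOSB was at 0.174, 0.200 and 0.196 FPKM in KO1 and at 0.121, 0.129 and 0.139 in KO2, against 0.330, 0.474 and 0.272 in WT. The 3 groups did not overlap, with KO2 lowest. Fitted without the filter, FOSB fell by 0.19 ± 0.05 in KO1 (limma adjusted p = 0.0128) and by 0.26 ± 0.05 in KO2 (adjusted p = 0.00271). In GENCODE v29, FOSB overlaps the repair gene ERCC1 on the opposite strand, and whether the counting used strand is not given in the sources used here. ERCC1 stood at 32.0 ± 2.80 FPKM in KO1 and 29.1 ± 1.49 in KO2, against 24.8 ± 2.12 in WT, so it rose where FOSB fell (limma adjusted p = 0.00176 in KO1 and 0.0252 in KO2). The FOSB values did not fall on whole steps, and the part of shared reads in them was not tested. In the same annotation, non-coding genes overlap EGR3 (AC055854.1), NR4A1 (AC025259.3) and IER2 (AC011446.2) on the opposite strand. Their part was not tested either.

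The 3 JUN genes were better expressed and behaved differently from one another. JUN, the main AP-1 activator, was at 1.56, 1.76 and 1.79 FPKM in KO1 and at 1.32, 1.504 and 1.57 in KO2, against 1.91, 2.12 and 1.84 in WT. Each edited library lay below each WT library, by small margins. The log2 fold change was -0.26 ± 0.08 in KO2, which passed (limma adjusted p = 0.0156), and -0.13 ± 0.08 in KO1, which did not (adjusted p = 0.186). Between the edited lines JUN differed by -0.14 ± 0.08 (adjusted p = 0.238). The call in KO2 was lost without WT replicate 2 (-0.22, adjusted p = 0.0630) or KO2 replicate 1 (-0.22, adjusted p = 0.0603), and after quantile normalization JUN also passed in KO1 (-0.29, adjusted p = 0.0157).

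JUNB, which opposes JUN at some targets and drives T-helper genes, had higher means in the edited lines that did not pass. It was at 7.61, 9.38 and 6.28 FPKM in KO1 and at 9.10, 7.63 and 7.53 in KO2, against 6.602, 6.28 and 6.73 in WT. KO2 lay wholly above WT, while KO1 replicate 3 lay at the low end of the WT range. The log2 fold change was 0.20 ± 0.12 in KO1 (limma adjusted p = 0.145) and 0.27 ± 0.12 in KO2 (adjusted p = 0.0658).

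JUNB passed in KO1 without KO1 replicate 3 (0.33, adjusted p = 0.0161). In KO2 it passed without KO1 replicate 2 (adjusted p = 0.0257), without KO1 replicate 3 (0.0248) or in a fit of KO2 and WT alone (0.0186), each of which changes only the estimate of spread. HOOK2, which overlaps JUNB on the opposite strand, rose in both lines, to 3.29 ± 0.477 FPKM in KO1 and 3.48 ± 0.398 in KO2, against 2.05 ± 0.234 in WT. The part of shared reads in the JUNB values was not tested.

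JUND, the JUN gene that is expressed in resting cells, and IER2 were the most abundant of the 10 genes. JUND was at 18.5, 18.2 and 12.9 FPKM in KO1 and at 15.996, 14.8 and 17.0 in KO2, against 14.1, 19.3 and 15.9 in WT, and the 3 groups overlapped. Its log2 fold change was 0.00 ± 0.14 in KO1 (limma adjusted p = 0.995) and -0.03 ± 0.14 in KO2 (adjusted p = 0.838). IER2 was at 15.9, 14.5 and 11.9 FPKM in KO1 and at 14.5, 13.6 and 14.1 in KO2, against 14.0, 15.8 and 16.5 in WT. Its log2 fold change was -0.13 ± 0.09 in KO1 (adjusted p = 0.244) and -0.12 ± 0.09 in KO2 (adjusted p = 0.276), and its groups overlapped. Neither gene passed against WT in any of the 19 alternatives run for each (adjusted p = 0.223 to 1 for JUND and 0.0608 to 0.821 for IER2 in KO1).

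**Figure D2:**
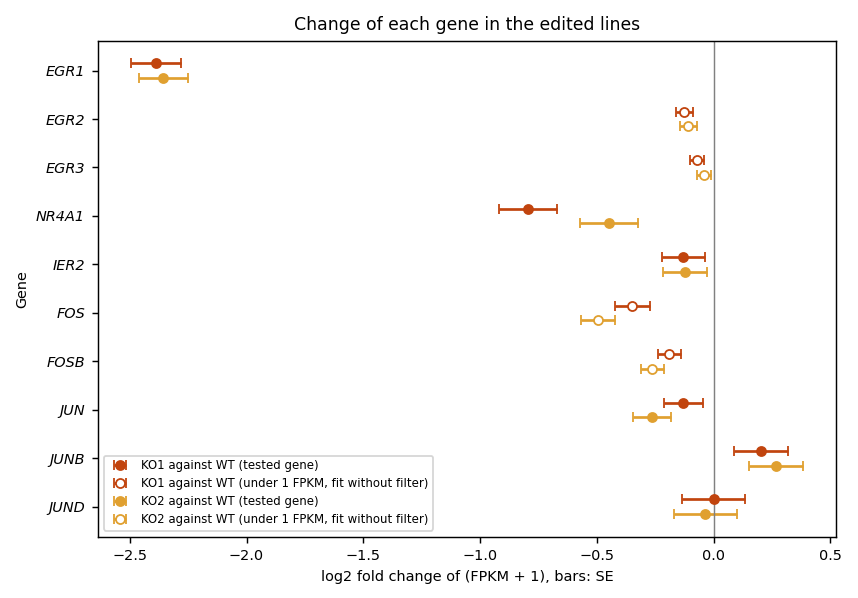
Log2 fold change of (FPKM + 1) of each gene in KO1 and KO2 against WT, with SE bars. Filled points are the 6 tested genes and open points the 4 genes under 1 FPKM, fitted without the filter. EGR1 stands apart at -2.39 and -2.36, followed by NR4A1 in KO1 and by FOS and NR4A1 in KO2, with JUNB to the right of 0 in both lines.

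Among the 6 tested genes, 2 fell in KO1 (EGR1 and NR4A1) and 0 rose, where 31.9% of all tested genes fell and 35.6% rose. In KO2, 3 fell (EGR1, NR4A1 and JUN) and 0 rose, where 26.6% of all tested genes fell and 38.1% rose. At an unadjusted limma p under 0.05 the rises numbered 0 in KO1 and 1 in KO2 (JUNB). Between the edited lines limma called 0 of the 6, where 30.6% of all tested genes were called, and 1 (NR4A1) at an unadjusted p under 0.05. The share that fell in KO1 is near that over all tested genes, and EGR1 passed the filter through its WT libraries alone. Fitted without the filter, 5 of the 10 fell and 0 rose in KO1, where 21.6% of 18182 genes fell and 26.7% rose. In KO2, 6 fell and 0 rose, where 17.6% fell and 26.5% rose, and between the edited lines 0 were called, where 19.9% were.

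All 10 genes can be compared by whether groups overlapped. KO1 lay wholly below WT for 6 of the 10 genes and wholly above it for 0, against 23.7% and 29.3% of the 18182 genes with a value above 0 in any library. KO2 lay wholly below WT for 5 and above it for 1, against 20.8% and 31.3%. KO2 lay wholly above KO1 for NR4A1 and wholly below it for FOSB, against 20.8% and 15.4%. The comparisons with WT share the same 3 WT libraries and are not independent of each other.

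**Figure D3:**
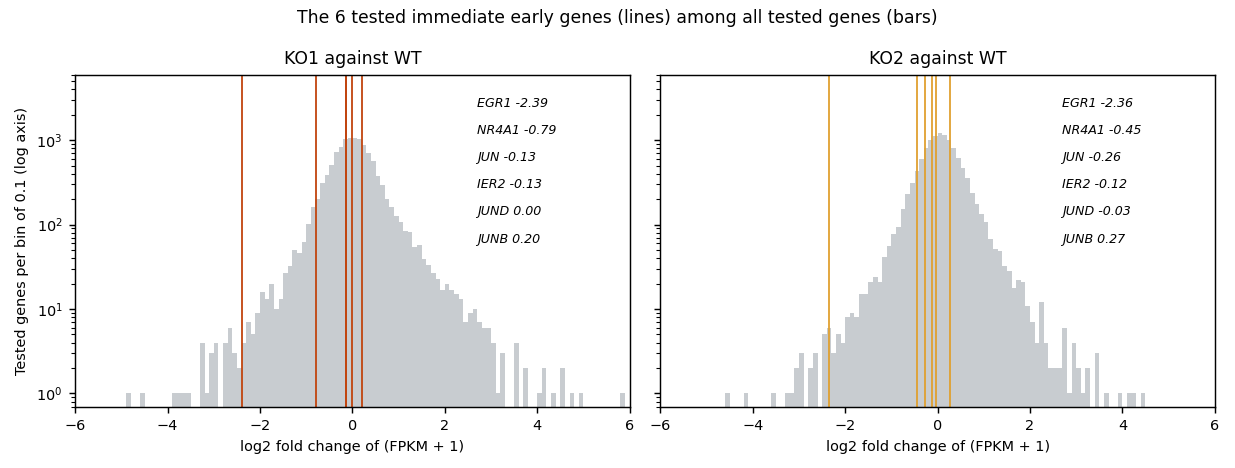
Number of tested genes per bin of log2 fold change (bars, log axis) in KO1 and in KO2 against WT, with a line and a printed value for each of the 6 tested genes. EGR1 lies in the far left tail in both panels, NR4A1 on the left shoulder, and the other 4 near the centre.

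Replicates within a group did not share a common order over all 10 genes. KO1 replicate 2 held the highest KO1 value for 6 of the 10 genes, KO2 replicate 1 the highest KO2 value for 5, and WT replicate 2 the highest WT value for 7. Levels per length ordered the 10 genes in WT as JUND, IER2, JUNB, EGR1, JUN, NR4A1, FOS, FOSB, EGR2 and EGR3. JUND and IER2 overlapped across WT libraries, as did JUN and NR4A1, and FOS and FOSB. In both edited lines EGR1 lay below JUN and NR4A1 in this order.

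The genes whose profiles over the 9 libraries were most like that of EGR1, by the root mean square difference of centred log2(FPKM + 1), were FYB, GBE1 and POLG (differences of 0.13, 0.14 and 0.14). FYB, an adaptor of T-cell receptor signalling, stood at 25.2 ± 0.686 FPKM in KO1 and 29.1 ± 2.22 in KO2, against 161 ± 12.3 in WT. GBE1, the glycogen branching enzyme, stood at 13.8 ± 1.31 and 12.3 ± 1.09 FPKM in KO1 and KO2, against 66.2 ± 7.90 in WT. POLG, the mitochondrial DNA polymerase, stood at 26.2 ± 1.48 and 28.9 ± 2.17 FPKM, against 132 ± 5.52 in WT. The likeness holds on this scale only, because adding 1 FPKM shrinks the change of a gene as low as EGR1. In plain FPKM means EGR1 fell more than these 3 genes, with WT 21.8-fold KO1 and 19.1-fold KO2. The same measure named ZNF670, AAED1 and HSDL1 for FOS and RRM2, PRKCH and RPS6KA5 for JUN, with differences of 0.05 each, for profiles that are themselves nearly flat on this scale.

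Other members of the EGR, AP-1 and NR4A families moved in both directions. Values of related genes are means ± SD in FPKM (n = 3 each), and each gene given with them passed in both lines (limma adjusted p of at most 0.00593), except MEF2C in KO2 (0.892). Of 10 listed genes 5 were tested, and 3 rose and 2 fell in each edited line. The median log2 fold change was 1.07 in KO1 and 0.93 in KO2, against 0.02 and 0.06 over all tested genes. The genes that rose encode dimer partners of JUN proteins, as do the genes that fell. BATF3 stood at 24.6 ± 2.30 FPKM in KO1 and 19.8 ± 0.813 in KO2, against 9.57 ± 1.08 in WT. BATF, a relative that drives T-helper genes, stood at 8.64 ± 0.588 and 7.79 ± 0.668 FPKM, against 3.21 ± 0.675 in WT. JDP2, a repressor of AP-1 sites, stood at 1.98 ± 0.337 and 1.69 ± 0.180 FPKM, against 0.417 ± 0.163 in WT. JDP2 passed the filter through the edited libraries alone.

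The members that fell were FOSL2 and ATF3. FOSL2, a FOS relative that lacks the strong activation domain, stood at 2.09 ± 0.143 FPKM in KO1 and 2.39 ± 0.0999 in KO2, against 4.20 ± 0.771 in WT. EGR4, FOSL1, BATF2, NR4A2 and NR4A3 did not reach the filter.

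Of 28 other immediate early genes 20 were tested, and KO1 had 7 rises and 10 falls and KO2 had 6 and 11. The median log2 fold change was -0.26 in KO1 and -0.35 in KO2. TNFAIP3, the A20 brake on NF-kappaB, fell to 6.285 ± 0.598 FPKM in KO1 and 10.3 ± 0.772 in KO2, against 28.9 ± 1.47 in WT. KLF10, a zinc finger factor induced by TGF-beta, fell to 6.31 ± 0.320 and 6.99 ± 0.810 FPKM, against 16.7 ± 0.529 in WT. ZFP36L2, which promotes decay of AU-rich mRNAs, fell to 64.0 ± 1.87 and 51.5 ± 3.02 FPKM, against 91.8 ± 1.52 in WT. BTG1, an antiproliferative gene, fell to 5.33 ± 0.856 and 5.04 ± 0.378 FPKM, against 12.0 ± 1.01 in WT. DUSP1, IER3, BTG2, ZFP36, PPP1R15A and CSRNP1 also fell in both lines, whereas IER5, KLF2, KLF4, ZFP36L1, NFKBIA and GADD45B rose in both, named after their values were seen.

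Genes that act upstream of the 10 changed in both directions, as did tested genes at large. Over all 11737 tested genes, the share called higher than WT was 35.6% for KO1 and 38.1% for KO2. The share called lower was 31.9% and 26.6%. Whether the counts of any related list, here or in the other paragraphs, depart from these shares was not tested. Of 23 genes of RAS, ERK, JNK and their kinases, KO1 had 5 rises and 9 falls and KO2 had 8 and 7 (medians -0.06 and 0.03). RASGRP1, the exchange factor that activates RAS below the T-cell receptor, fell to 18.2 ± 1.37 FPKM in KO1 and 15.4 ± 1.49 in KO2, against 44.8 ± 2.49 in WT. MAPK3, which encodes ERK1, fell to 23.8 ± 1.38 and 26.5 ± 2.46 FPKM, against 40.4 ± 1.24 in WT. HRAS rose to 25.1 ± 0.596 and 27.8 ± 1.22 FPKM, against 16.03 ± 1.90 in WT, and RPS6KA2, an ERK-activated kinase, rose to 2.98 ± 0.195 and 2.66 ± 0.0923, against 0.612 ± 0.125. RPS6KA2 passed the filter through the edited libraries alone.

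Of 16 genes of the SRF, ELK, CREB and MEF2 activators, KO1 had 7 rises and 4 falls and KO2 had 6 and 5 (medians 0.23 and 0.04). ELK1, the ERK-responsive partner of SRF, fell to 14.9 ± 1.37 FPKM in KO1 and 22.6 ± 0.902 in KO2, against 27.0 ± 0.868 in WT, and KO2 differed from KO1 (log2 fold change 0.57 ± 0.06, limma adjusted p = 9.7e-05). ATF2 fell to 25.8 ± 0.624 and 18.4 ± 0.576 FPKM, against 34.2 ± 2.31 in WT, and the CREB coactivator CRTC2 to 9.03 ± 0.797 and 9.71 ± 0.578, against 14.2 ± 1.02. MEF2C, of the MEF2 family that links calcium to NR4A1 in T cells, was at 1.78, 2.68 and 2.47 FPKM in KO1 and at 0.0153, 0.0249 and 0 in KO2, and was listed at 0 in all 3 WT libraries. MEF2C thus passed the filter through its KO1 libraries alone. Of 9 calcineurin and NFAT genes, KO1 had 4 rises and 3 falls and KO2 had 3 and 3 (medians 0.12 and 0.02). PPP3CA, the calcineurin catalytic subunit, rose to 12.5 ± 0.334 and 13.9 ± 0.535 FPKM, against 2.81 ± 0.477 in WT. The calcineurin regulator RCAN1 fell to 19.1 ± 0.489 and 19.6 ± 0.124 FPKM, against 27.6 ± 0.899, while NFATC2 and NFATC3 rose by 0.51 ± 0.07 and 0.22 ± 0.04 in KO1 and by 0.39 ± 0.07 and 0.21 ± 0.04 in KO2 on the log2 scale.

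Genes induced by ERK moved in both directions. Of 15 ERK feedback genes 9 were tested, and KO1 had 3 rises and 4 falls and KO2 had 3 and 3 (medians 0.09 and -0.12). ETV5, an ETS factor induced by ERK, fell to 0.556 ± 0.0704 FPKM in KO1 and 0.867 ± 0.225 in KO2, against 4.95 ± 0.754 in WT. SPRED2 and SPRY1, inhibitors of the RAS pathway, fell to 8.997 ± 0.448 and 4.42 ± 0.234 FPKM in KO1 and to 9.97 ± 0.538 and 5.45 ± 0.429 in KO2, against 23.4 ± 0.773 and 9.68 ± 0.143 in WT. SPRY2, of the same family, rose to 4.81 ± 0.396 and 5.06 ± 0.236 FPKM, against 1.69 ± 0.376 in WT.

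Of 15 EGR corepressors and T-cell genes known as EGR targets 10 were tested, and KO1 had 2 rises and 5 falls and KO2 had 4 and 5 (medians -0.21 and -0.18). NRN1 fell to 35.7 ± 1.04 FPKM in KO1 and 43.4 ± 2.08 in KO2, against 212 ± 20.5 in WT. CD69, the early activation antigen, fell to 0.690 ± 0.235 and 2.16 ± 0.477 FPKM, against 12.4 ± 0.839 in WT. CD5, which dampens receptor signalling, fell to 14.5 ± 0.542 and 18.7 ± 0.764 FPKM, against 34.9 ± 2.45 in WT. ID3, an inhibitor of E proteins that EGR factors induce in mouse thymocytes, rose to 31.2 ± 2.47 and 25.75 ± 2.003 FPKM, against 10.4 ± 1.17 in WT, the opposite direction to EGR1. The corepressor NAB1 rose in both lines, and NAB2, itself an EGR1 target, rose in KO2.

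**Figure D4:**
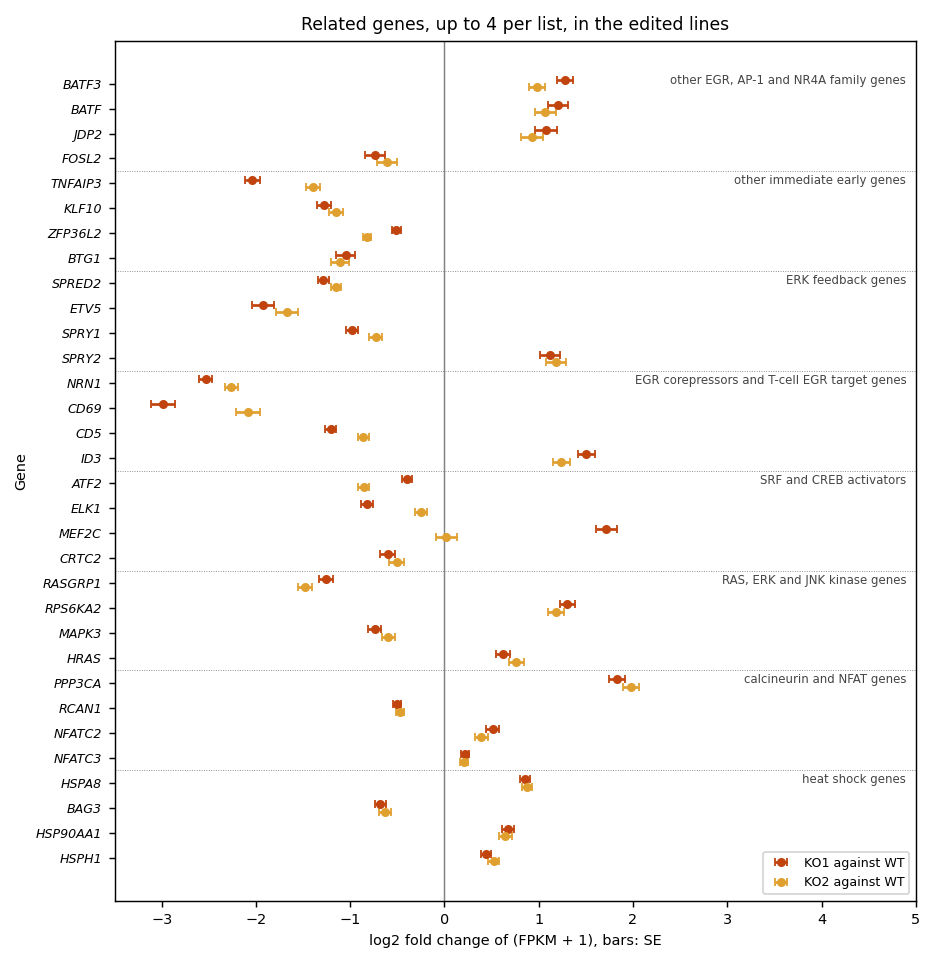
Log2 fold change of (FPKM + 1) with SE in KO1 and KO2 against WT for up to 4 genes of each related list, taken by the smallest p for both edited lines together. Dotted lines separate the lists. In the list of EGR corepressors and targets, NRN1, CD69 and CD5 lie left of 0 and ID3 right of it in both lines.

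Heat shock genes, which share some inducers with immediate early genes, moved in both directions. Of 9 listed genes 8 were tested, and KO1 had 4 rises and 1 fall and KO2 had 5 and 2 (medians 0.27 and 0.21). HSPA8, a constitutive chaperone, rose to 920 ± 41.9 FPKM in KO1 and 934 ± 34.8 in KO2, against 508 ± 28.8 in WT. HSP90AA1 and HSPH1 rose by 0.68 ± 0.06 and 0.44 ± 0.05 in KO1 and by 0.65 ± 0.06 and 0.52 ± 0.05 in KO2 on the log2 scale, and BAG3 fell by 0.68 ± 0.06 and 0.63 ± 0.06. The part of stress in the levels of the 10 genes was not tested.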

How the data were processed

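Polyadenylated RNA of 9 Jurkat libraries was prepared with a KAPA mRNA kit, per the labels' protocols. The table the authors deposited holds FPKM, 1 column per library. Per the submitters' processing notes, which give no order or role, the tools were STAR 2.5.0b, Cufflinks 2.2.1 and bedtools 2.7.0, and the genome hg19. No source used here gives the annotation or strand setting. Groups and replicate numbers came from sample titles. Read depth is unknown, so no counting interval is given. Of 26228 rows, 38 with text in place of values were left out.

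Genes with at least 1 FPKM in 3 or more libraries (11737) were fitted as log2(FPKM + 1) in R 4.3.3 using limma 3.58.1. The fit took all 9 libraries, with a mean for each group and a mean-variance trend. It was also run on simulated data, whose changed genes were drawn from those above 5 FPKM in WT. That run does not cover weaker genes such as NR4A1, JUN and FOS. EGR2, EGR3, FOS and FOSB did not reach the filter and were fitted without it, a choice made after the data were seen. The members and the lists were chosen with earlier results of these data known. Genes named beyond the 10 were the 4 of each list ranked first by p when KO1 and KO2 were averaged and set against WT, and the 3 genes with profiles most like EGR1, FOS and JUN. Others are named as chosen after their values were seen. Alternatives changed the pseudocount, filter, normalization, moderation, libraries and threshold. Promoter windows are RefSeq's, on GRCh38.p14.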

Additional observations from a re-analysis of the deposited data

Results flagged for a closer look

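None of the 6 tested immediate early genes passed limma's contrast of KO2 against KO1 at the settings of the report, although NR4A1 passed in 4 of 18 alternatives. Of the 32 related genes taken by p from the lists, 12 passed it, where 30.6% of all tested genes did. The 32 were taken by their p against WT, which rests on the same estimate of spread. Differences are given on the log2 scale. KO2 was above KO1 for CD69 (0.90), TNFAIP3 (0.64), ELK1 (0.57), CD5 (0.35), NRN1 (0.27) and SPRY1 (0.25). KO2 was below KO1 for MEF2C (-1.70), ATF2 (-0.47), ZFP36L2 (-0.31), BATF3 (-0.30), ID3 (-0.27) and RASGRP1 (-0.22). The limma adjusted p ran from 2.874e-06 for MEF2C to 0.04329 for RASGRP1. MEF2C passed the filter through its KO1 libraries alone. The mean in KO2 was farther from WT than that in KO1 for ATF2, ZFP36L2 and RASGRP1, and the mean in KO1 was the farther for the other 9. CSRNP1 (KO2 above KO1), KLF4 and NAB1 (KO2 below KO1), named in the report after their values were seen, passed this contrast too.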

How the results depend on the processing

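At an adjusted p of 0.05, EGR1 and NR4A1 kept their fall in both edited lines under the alternative fits (19 for EGR1, 18 for NR4A1), as did FOS and FOSB in the 17 run without the filter. A 2-fold minimum, set on FPKM + 1, ended the calls of NR4A1, FOS and FOSB in both lines. FOS and FOSB stood under 1 FPKM in WT, so on this scale even a fall to 0 could not meet it. In plain FPKM means, WT was 2.73-fold KO1 and 7.13-fold KO2 for FOS. The same ratios were 1.89 and 2.76 for FOSB and 2.86 and 1.67 for NR4A1. An adjusted p of 0.01 ended the call of FOSB in KO1. With no filter, which covers all 10 genes, the number that fell was 5 in KO1 and 6 in KO2. At 5 FPKM or more, where NR4A1 and JUN were not tested either, it was 1 in each line. Among the 6 tested genes it was 1 in each line with a 2-fold minimum. With any replicate left out, 2 of these 6 fell in KO1 and 2 to 3 in KO2. Of the same 6 genes, the number that rose was 0 to 1 in each comparison when a replicate was left out. It was 1 in KO2 in the fit of only the groups compared, and 1 in KO2 against KO1 with a pseudocount of 0.1 or quantile normalization. With a 2-fold minimum the calls over all genes numbered 652 higher and 334 lower in KO1, 457 and 253 in KO2, and 42 and 104 in KO2 against KO1, where an adjusted p of 0.01 left 1168 and 932. Leaving out a replicate gave 3879 to 4153 higher and 3460 to 3782 lower in KO1, 4093 to 4551 and 2776 to 3190 in KO2, and 1531 to 2481 and 1112 to 1600 in KO2 against KO1. Over all genes, rises made up 59.7% of the calls in KO2 against KO1, against 49% after quantile normalization and 47.9% after median centring.

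Sign changes among the 10 genes were between values near 0. JUND in KO1 was -0.0034 after quantile normalization, -0.0088 after median centring and -0.10 to 0.16 with a replicate left out, and in KO2 -0.13 to 0.081. In KO2 against KO1, median centring gave -0.0040 for EGR1, -0.020 for EGR2, -0.0038 for EGR3 and -0.027 for IER2, and quantile normalization gave -0.021 for IER2. Leaving out a replicate there gave -0.076 to 0.14 for EGR1, -0.062 to 0.19 for JUNB, -0.19 to 0.051 for JUND, -0.10 to 0.094 for IER2 and -0.012 to 0.032 for EGR2. MEF2C in KO2 was -0.048 after quantile normalization and -0.025 after median centring. The cause was not tested.

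For the pairing by replicate number, the correlation of deviations ran from -0.287 to -0.0767 for KO1 with WT, against -0.214 to 0.343 between different numbers. It ran from 0.033 to 0.318 for KO2 with WT (different numbers -0.266 to 0.0769). For KO2 with KO1 it ran from -0.0774 to 0.143 (different numbers -0.141 to 0.157). Only for KO2 with WT did same-numbered pairs lie mostly above the others, and the main fit took no pairing. With the replicate block 2 of the 6 tested genes fell in KO1 and 3 in KO2, and over all genes 4053 rose and 3641 fell in KO1 and 4341 and 2998 in KO2.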
